A study of Homo sapiens with 8 samples.

Results

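The MAP kinase phosphatases of the dual-specificity phosphatase (DUSP) family were followed in 2 human T-cell acute lymphoblastic leukemia (T-ALL) lines, CUTLL1 (CUTTL1 in the labels) and TIB153. The set was chosen by symbol and held 9 of the 57189 genes counted: DUSP1, DUSP8, DUSP10 and DUSP16, grouped here as directed at the stress kinases JNK and p38, and DUSP2, DUSP4, DUSP5, DUSP6 and DUSP7, grouped as directed at ERK. The set and its split were proposed with the PKF118-310 and control values in view, so these values are given as a description, with no test. Messenger RNA was sequenced from control cells, labelled control and not transfected, and from cells given PKF118-310, an inhibitor of the binding of β-catenin to TCF factors. By the published methods the exposure was micromolar and lasted about a day, and control cells had placebo. Both lines were grown in RPMI with fetal bovine serum, and CUTLL1 is known for a rearranged NOTCH1 gene. Each of the 4 groups was 1 library of 1 line, read in 2 lanes, so a ratio within a line carries no error from independent cultures, and treatment cannot be told apart from the culture or library that received it.

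MAP kinases are switched on when an upstream kinase phosphorylates a threonine and a tyrosine in their activation loop. The DUSP phosphatases remove both phosphates and so switch the kinases off, and many DUSP genes are themselves transcribed in response to MAP kinase signaling, which makes them part of a negative feedback loop. In T cells, ERK is activated by the antigen receptor and by growth factors. JNK and p38 respond to stress and inflammatory signals, though not to these alone. The split is one of preference: DUSP5, DUSP6 and DUSP7 act chiefly on ERK and DUSP8, DUSP10 and DUSP16 on JNK and p38, while DUSP1, DUSP2 and DUSP4 are nuclear enzymes that can act on several MAP kinases.

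Library totals lay between 7609427 and 8140391 counts, and the lanes of a library differed by no more than sampling noise (chi-square per degree of freedom 0.990 to 1.02), so lanes were summed. Levels are counts scaled to library size (CPM) after TMM scaling, with exact Poisson 95% intervals, and ratios carry exact binomial 95% intervals. Both cover counting error only. All 9 T lineage markers reached 5 CPM in at least 1 library, with summed levels of 2506 to 2913 CPM. Single markers differed more than the sum. In CUTLL1, CD2 had 14.0 CPM in control and 4.11 in treated cells (log2 ratio −1.76), whereas PTPRC had 421 and 563 CPM (0.42). Of the other cell type markers, CD79A made up most of the B cell list (10.8 to 104 CPM summed) and PECAM1 most of the stromal and erythroid list (46.7 to 156 CPM summed), while MS4A1 and CSF1R had 0 counts in every library and no myeloid marker reached 5 CPM. The part of these marker differences in the results was not tested. In bulk RNA, fewer cells that express a gene and less of its RNA per cell cannot be told apart.

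With PKF118-310, 4 of the 9 phosphatase genes were at least 2-fold higher in CUTLL1 with an interval that excluded no change, and 0 were 2-fold lower. Over all 13280 genes tested, 4.8% were higher and 2.21% lower by the same rule. In TIB153 4 genes were likewise higher and 0 lower, beside 5.47% and 2.12% of all genes. DUSP4, DUSP8 and DUSP10, thus 3 of 9, were 2-fold higher in both lines, as were 1.94% of all genes, and none was 2-fold lower in both, as were 0.309%. The count in both lines was 2 in lane L001 alone, where DUSP4 did not pass in TIB153. DUSP5 passed in CUTLL1 and DUSP16 in TIB153, and DUSP1, DUSP2, DUSP6 and DUSP7 passed in neither line. All 9 genes passed the filter on low counts, DUSP4 by its 2 treated libraries alone. By counting error alone, with an interval on 1 side of no change at any size of ratio, 7 of the 9 genes were higher and 1 lower in CUTLL1 (23.3% and 23.9% of all genes) and 4 higher and 2 lower in TIB153 (25.2% and 28.7%). Because these contrasts chose the set, nothing is read from the counts.

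**Figure D1:**
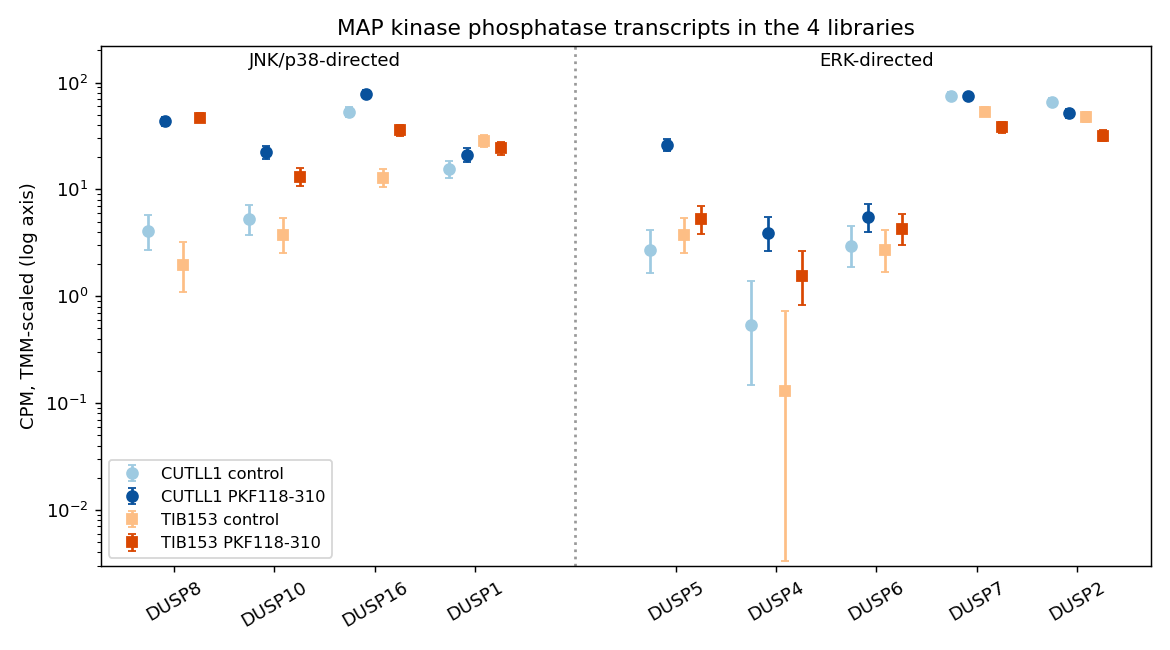
CPM after TMM scaling (log axis) of the 9 genes in the 4 libraries, with exact Poisson 95% intervals as bars; blue circles are CUTLL1 and orange squares TIB153, pale for control and dark for PKF118-310. DUSP8 lies at 4.05 and 1.95 CPM in the controls and at 43.2 and 47.0 CPM in the treated libraries, whereas DUSP7 and DUSP2 lie above 30 CPM throughout.

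DUSP8 (chromosome 11, 1554044 to 1571920, minus strand, on hg38 as all positions here), a phosphatase of JNK and p38, showed the largest ratio of the set in both lines. It had 30 counts in CUTLL1 control, 347 in CUTLL1 with PKF118-310, 15 in TIB153 control and 395 in TIB153 with PKF118-310, or 4.05, 43.2, 1.95 and 47.0 CPM. Both treated libraries lay far above both controls, and the intervals of treated and control libraries did not overlap. The treated library was 10.5-fold higher in CUTLL1 (interval 7.35 to 16.1) and 23.4-fold higher in TIB153 (14.5 to 43.5). Its log2 ratio was larger in TIB153 by 1.15 (95% counting interval 0.25 to 2.06), while the treated levels of 43.2 (38.8 to 48.0) and 47.0 CPM (42.5 to 51.9) had overlapping intervals. DUSP8 has near-identical pseudogene copies that can share its reads, and the counted ones, mostly DUSP8P5, held 17, 21, 19 and 60 counts in the same order of libraries. With these reads added, an alternative chosen after seeing the data, the log2 ratios of DUSP8 were 2.84 (2.41 to 3.32) in CUTLL1 and 3.60 (3.11 to 4.16) in TIB153 in place of 3.40 and 4.55.

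The bases before the start sites of 3 JNK/p38-directed genes are shown because DUSP8 and DUSP1 share a motif and differ in their ratios, and DUSP16 lacks it. Each stretch is the 250 bases before a RefSeq start site on GRCh38.p14, a patch of the hg38 assembly that the submitters' processing notes name, and all are written 5′ to 3′ on the minus strand. Capitals mark each TGACGTCA, the cAMP response element (CRE) bound by factors of the CREB and ATF families. The RefSeq start of DUSP8 lies 351 bases upstream of the gene start in the count files, that of DUSP16 lies 480 bases upstream, and that of DUSP1 coincides with it.
DUSP8, chr11:1572272-1572521: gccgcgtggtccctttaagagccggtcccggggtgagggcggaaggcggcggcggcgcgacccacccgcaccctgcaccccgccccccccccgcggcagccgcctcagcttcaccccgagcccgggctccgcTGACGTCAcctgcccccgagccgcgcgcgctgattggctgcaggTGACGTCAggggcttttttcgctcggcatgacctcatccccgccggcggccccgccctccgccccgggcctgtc
DUSP1, chr5:172771196-172771445: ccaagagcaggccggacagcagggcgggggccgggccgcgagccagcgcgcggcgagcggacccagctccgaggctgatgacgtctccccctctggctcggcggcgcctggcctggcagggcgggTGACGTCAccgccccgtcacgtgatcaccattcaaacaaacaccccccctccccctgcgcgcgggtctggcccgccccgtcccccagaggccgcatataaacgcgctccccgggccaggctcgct
DUSP16, chr12:12562864-12563113: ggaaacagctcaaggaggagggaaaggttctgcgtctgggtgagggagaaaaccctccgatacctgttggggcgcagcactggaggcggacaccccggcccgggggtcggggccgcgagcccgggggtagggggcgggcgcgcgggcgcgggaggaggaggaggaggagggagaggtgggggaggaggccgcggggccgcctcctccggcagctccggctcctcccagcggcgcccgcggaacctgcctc

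Motifs were searched on both strands of windows from 250 bases before to 50 after each start, with 8 windows for 7 of the 9 genes. The DUSP8 window held 2 copies of the CRE, beginning 118 and 74 bases before the start site, and the DUSP1 window held 1, beginning 125 bases before it. Among 35116 promoter windows of the same length, 1.85% held at least 1 copy and 0.0598% held 2 or more. The windows of DUSP2, DUSP6, DUSP7, DUSP10 and DUSP16 held none, and DUSP4 and DUSP5 were not searched. The RefSeq starts used for DUSP6 and DUSP10 lay inside the gene as counted, not at its start in the count files. The shorter TGACG, which each CRE holds on either strand, was found 4 times in the DUSP8 window, 4 times in the DUSP1 window and 1 time in the second DUSP10 window, and in 24.6% of all windows. The letters TGACTCA (AP-1; 4.95% of windows), CTTTGAT (TCF/LEF; 2.62%) and TGATGCAA (the CARE element bound by ATF4; 0.866%) were in none of the 8 windows. DUSP8, with 2 copies, and DUSP1, with 1, had log2 ratios of 3.40 and 0.46 in CUTLL1 and 4.55 and −0.22 in TIB153. The searched genes without a copy ranged from DUSP2 (−0.36 in CUTLL1 and −0.58 in TIB153) to DUSP10 (2.06 and 1.78). Whether these letters bear on the ratios was not tested. A match is a description of the letters and does not show binding. The motifs were chosen with the DUSP8 values and window in view.

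DUSP10 (chromosome 1, 221701424 to 221742176, minus strand), which inactivates JNK and p38 and restrains cytokine production in T cells, had 39 and 178 counts in control and treated CUTLL1 and 29 and 110 in TIB153, or 5.26, 22.2, 3.77 and 13.1 CPM. Both treated libraries again lay above both controls without overlap of intervals. The ratios were 4.17-fold in CUTLL1 (interval 2.97 to 6.12) and 3.43-fold in TIB153 (2.29 to 5.43). On the log2 scale they differed between lines by −0.28 (−1.05 to 0.49), so a line difference was not detectable at this depth.

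DUSP16 (chromosome 12, 12474210 to 12562383, minus strand), a phosphatase of JNK that shuttles between nucleus and cytoplasm, had 393 and 633 counts in control and treated CUTLL1 and 99 and 299 in TIB153, or 53.0, 78.9, 12.9 and 35.6 CPM. Each treated library was above the control of its own line, but treated TIB153 remained below control CUTLL1. The log2 ratio was 0.57 (interval 0.39 to 0.76) in CUTLL1 and 1.46 (1.14 to 1.81) in TIB153, and it was larger in TIB153 by 0.89 (0.52 to 1.27). The line with the lower control level had the larger ratio.

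DUSP1 (chromosome 5, 172768090 to 172771195, minus strand), an immediate early gene whose nuclear product prefers p38 and JNK, had 114 and 170 counts in control and treated CUTLL1 and 219 and 205 in TIB153, or 15.4, 21.2, 28.4 and 24.4 CPM. The log2 ratio was 0.46 (0.11 to 0.82) in CUTLL1 and −0.22 (−0.50 to 0.06) in TIB153, and the TIB153 value was lower by a difference of −0.68 (−1.12 to −0.24). The DUSP1 ratios had opposite signs in the lines, but the TIB153 interval included no change.

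**Figure D2:**
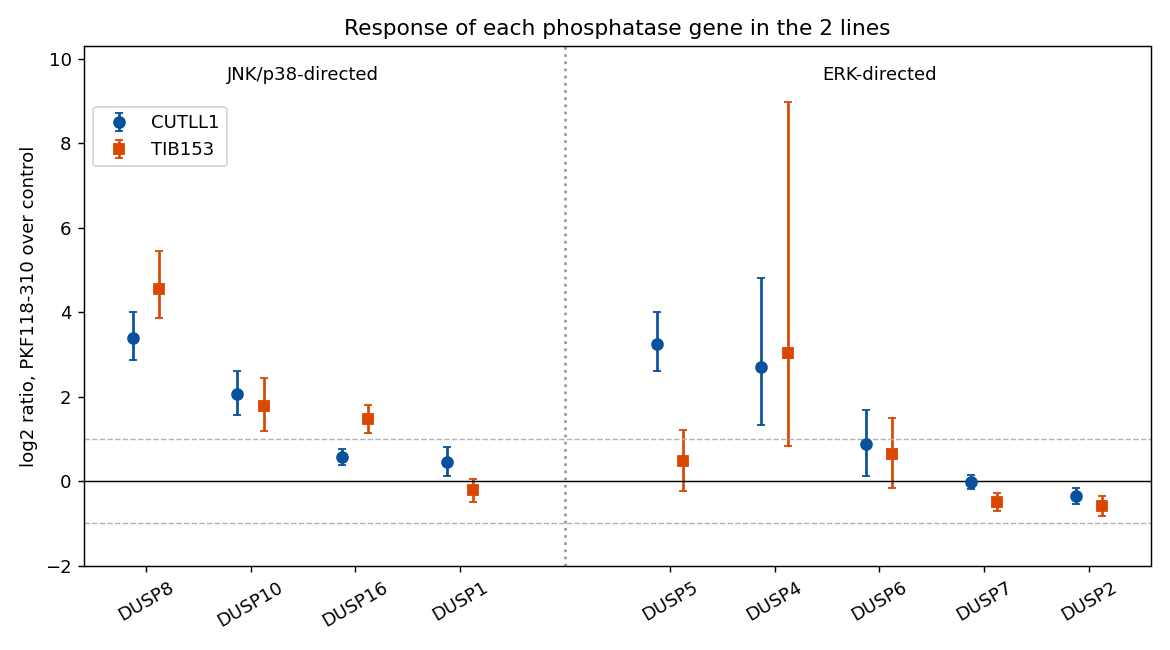
Log2 ratio of PKF118-310 over control for each gene in CUTLL1 (blue circles) and TIB153 (orange squares), 1 library per group, with exact binomial 95% counting intervals as bars and dashed lines at 2-fold. DUSP8 and DUSP10 lie above 1 in both lines, DUSP5 lies at 3.24 in CUTLL1 and 0.47 in TIB153, and DUSP2 lies below 0 in both.

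Among the ERK-directed genes, DUSP5 (chromosome 10, 110497838 to 110511544, plus strand), a nuclear phosphatase specific for ERK and itself induced by ERK signaling, differed most between the lines. It had 20 and 209 counts in control and treated CUTLL1 and 29 and 44 in TIB153, or 2.70, 26.0, 3.77 and 5.24 CPM. Only treated CUTLL1 stood apart, since the intervals of the other 3 libraries overlapped. The ratio was 9.44-fold in CUTLL1 (6.09 to 16.1) and 1.38-fold in TIB153 (0.851 to 2.31), and on the log2 scale the TIB153 value was lower by a difference of −2.77 (−3.71 to −1.83). With reads of its pseudogenes added (13, 18, 9 and 23 counts), the log2 ratios were 2.65 (2.14 to 3.24) and 0.68 (0.10 to 1.31).

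DUSP4, an inducible nuclear phosphatase of ERK and JNK, was scarcely expressed. It had 4 and 31 counts in control and treated CUTLL1 and 1 and 13 in TIB153, or 0.540, 3.86, 0.130 and 1.55 CPM. The log2 ratios of 2.69 (1.34 to 4.80) and 3.04 (0.84 to 8.98) rest on these few reads. In TIB153 lane L001 alone gave 1.76 (−0.95 to 7.78), which no longer excluded no change, and lane L002 alone gave 3.99.

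DUSP6 (chromosome 12, 89347232 to 89353271, minus strand), a cytoplasmic ERK phosphatase widely used as a readout of ERK activity, had 22 and 44 counts in control and treated CUTLL1 and 21 and 36 in TIB153, or 2.97, 5.48, 2.73 and 4.29 CPM. The log2 ratios were 0.87 (0.12 to 1.69) and 0.64 (−0.16 to 1.5). Both values were above 0, and the TIB153 interval did not exclude no change. Of its exonic bases 40.5% are shared with an antisense gene, AC024909.2, which had few counts in any library. DUSP6 itself had few counts, and the part of this overlap in its ratios was not tested.

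DUSP7 (chromosome 3, 52048919 to 52056550, minus strand), another cytoplasmic ERK phosphatase, and DUSP2 (chromosome 2, 96143166 to 96145440, minus strand), a nuclear phosphatase known from activated lymphocytes, were the most abundant ERK-directed genes and were not higher with PKF118-310 in either line. DUSP7 had 560 and 596 counts in control and treated CUTLL1 and 412 and 319 in TIB153, or 75.5, 74.3, 53.5 and 38 CPM. Its log2 ratios were −0.02 (−0.19 to 0.14) and −0.49 (−0.71 to −0.28), a line difference of −0.47 (−0.74 to −0.20). The counts of DUSP2 were 488 in control and 413 in treated CUTLL1, against 366 and 267 in TIB153, or 65.8, 51.5, 47.5 and 31.8 CPM. Its log2 ratios were −0.36 (−0.55 to −0.16) and −0.58 (−0.81 to −0.35). Both were below 0 beyond counting error, as were 23.9% of all genes tested in CUTLL1 and 28.7% in TIB153. In all, the line difference exceeded counting error for 5 of the 9 genes, being larger in TIB153 for DUSP8 and DUSP16 and smaller for DUSP1, DUSP5 and DUSP7. Over all genes tested, the difference was above 0 beyond counting error for 14.1% and below 0 for 19.1%.

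As groups, the 4 JNK/p38-directed genes had a median log2 ratio of 1.32 in CUTLL1 (range 0.46 to 3.40) and 1.62 in TIB153 (−0.22 to 4.55). The 5 ERK-directed genes had medians of 0.87 (−0.36 to 3.24) and 0.47 (−0.58 to 3.04). The ranges of the groups overlapped in both lines, and the median of all tested genes was 0.00 in CUTLL1 and −0.01 in TIB153. Of the JNK/p38-directed genes 2 of 4 were 2-fold higher in CUTLL1 and 3 of 4 in TIB153. Of the ERK-directed genes 2 of 5 and 1 of 5 were. By the same rule 4.8% of all genes tested were higher in CUTLL1 and 5.47% in TIB153. The ERK-directed gene called in TIB153 was DUSP4, with 1 and 13 counts, which did not pass there in lane L001 alone. Because these contrasts chose the set and its split, nothing is read from the group counts. When the 3 genes that act on several MAP kinases were left out, a choice made after seeing the data, DUSP8, DUSP10 and DUSP16 had medians of 2.06 and 1.78 and DUSP5, DUSP6 and DUSP7 had 0.87 and 0.47.

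Levels were compared between genes per exonic length, as CPM per kb. In CUTLL1 control DUSP2 stood highest at 34.1 CPM per kb, followed by DUSP7 (13.4), DUSP16 (9.26), DUSP1 (7.62), DUSP10 (1.81), DUSP5 (1.03), DUSP8 (0.877), DUSP6 (0.641) and DUSP4 (0.0744). The intervals of neighbours overlapped for 4 of the 8 pairs, namely DUSP16 with DUSP1 and each step from DUSP10 to DUSP6. With PKF118-310 the order in CUTLL1 became DUSP2 (26.6), DUSP16 (13.8), DUSP7 (13.1), DUSP1 (10.5), DUSP5 (9.96), DUSP8 (9.37), DUSP10 (7.61), DUSP6 (1.18) and DUSP4 (0.532), and neighbours from DUSP16 through DUSP10 all overlapped. In TIB153 control the order was DUSP2 (24.6), DUSP1 (14.1), DUSP7 (9.47), DUSP16 (2.25), DUSP5 (1.44), DUSP10 (1.29), DUSP6 (0.589), DUSP8 (0.422) and DUSP4 (0.0179), with overlaps at each step from DUSP16 to DUSP8. With PKF118-310 DUSP8 moved to the third place, the order being DUSP2 (16.5), DUSP1 (12.1), DUSP8 (10.2), DUSP7 (6.72), DUSP16 (6.22), DUSP10 (4.49), DUSP5 (2.0), DUSP6 (0.925) and DUSP4 (0.213). Of these neighbours, DUSP1 overlapped with DUSP8 and DUSP7 with DUSP16.

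The make-up of the phosphatase transcripts therefore differed between treated and control libraries. The summed level of the JNK/p38-directed genes was 19.6 CPM per kb in control and 41.2 in treated CUTLL1, and 18 and 33.0 in TIB153. That of the ERK-directed genes was 49.2 and 51.5 CPM per kb in CUTLL1 and 36.1 and 26.3 in TIB153. All 9 genes summed to 68.8 CPM per kb in control and 92.7 in treated CUTLL1, against 54.2 and 59.3 for TIB153. The JNK/p38-directed share was 28.4% in control and 44.5% in treated CUTLL1, and 33.3% and 55.6% in TIB153. DUSP2 alone made up 49.6% of the sum in CUTLL1 control and 28.7% with PKF118-310, and 45.4% and 27.7% in TIB153, while the DUSP8 share was 1.28% and 10.1% in CUTLL1 and 0.779% and 17.2% in TIB153.

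**Figure D3:**
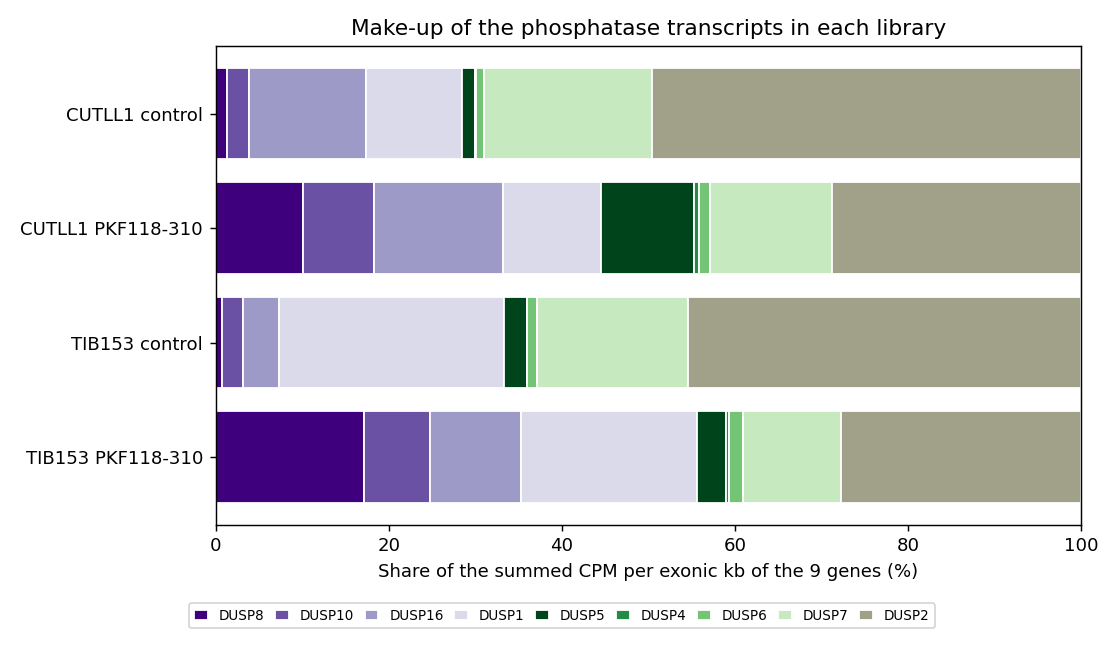
Share of each gene in the summed CPM per exonic kb of the 9 genes, 1 bar per library; purple shades are JNK/p38-directed genes and the others ERK-directed genes. The purple share is 28.4% and 33.3% in the controls and 44.5% and 55.6% in the treated libraries of CUTLL1 and TIB153.

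The control libraries were then set against each other. DUSP16 was 4.11-fold lower in TIB153 control than in CUTLL1 control, with a log2 ratio of −2.04 (−2.38 to −1.72), and DUSP8 had a log2 ratio of −1.03 (−2.05 to −0.12). These 2 of 9 genes were at least 2-fold lower and 0 were 2-fold higher, beside 6.12% and 9.45% of all genes tested. By counting error alone 1 was higher and 4 lower, beside 27.8% and 27.6%. The call of DUSP8 does not hold in either lane alone, where the interval included no change, with a pseudocount of 2, where the log2 ratio was −0.97, or with pseudogene reads added (−0.52, interval −1.20 to 0.15). DUSP1 was higher in TIB153 by a log2 ratio of 0.88 (0.55 to 1.23), under 2-fold, and DUSP2 (−0.47) and DUSP7 (−0.50) were lower beyond counting error. DUSP5 (0.47, −0.39 to 1.38), DUSP6 (−0.12, −1.06 to 0.81), DUSP10 (−0.48, −1.23 to 0.25) and DUSP4 (1 count in TIB153 and 4 in CUTLL1) showed no difference detectable at this depth. Each control library is also the reference of its line's ratio.

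Other genes of the MAP kinase pathway, none of them in the set, were tested across both lines with edgeR's quasi-likelihood test and cell line as a block (n = 2 lines, 1 residual degree of freedom). Of 88 genes listed, 73 passed the filter on low counts, 12 rose and 1 fell at an adjusted p under 0.05, beside 6.11% and 6.78% of all genes tested. The lists were chosen with earlier results of these data known, so the counts beside these shares are a description only. The spread is mostly pooled over genes (median 13.0 prior degrees of freedom). The DESeq2 Wald test called 3 of them, JUN, FOS and ATF3, and gave no adjusted p for 5 of the 73, SPRY4 among them.

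The kinases themselves did not pass. None of the 9 MAP kinase genes tested passed in edgeR, where 2 had an unadjusted p under 0.05, or in DESeq2, and their median log2 change was −0.06. Among them were MAPK14, which encodes a p38 kinase (0.01 in CUTLL1 and −0.13 in TIB153), and the JNK genes MAPK9 (−0.29 and −0.40) and MAPK8 (0.20 and 0.14). Named after their values were seen, MAPK7 had 0.48 and 0.61 (edgeR adjusted p = 0.0684) and MAPK13, a p38 gene with 13 and 48 counts in control and treated CUTLL1, had 1.73 and 0.21 (edgeR adjusted p = 0.189) and no adjusted p in DESeq2. Of 10 other dual-specificity phosphatase genes tested, 0 passed in edgeR or DESeq2 and 2 had an unadjusted p under 0.05. Among them were STYX, a catalytically dead member (−0.24 and −0.48), DUSP12 (0.25 and 0.17), DUSP22 (0.14 and 0.13) and DUSP14 (0.36 and 0.26). DUSP9, the remaining classical MAP kinase phosphatase, had only 5 and 3 counts in control and treated CUTLL1 and 15 and 12 in TIB153. PTPN7, a tyrosine phosphatase of lymphocytes that binds ERK and p38 (log2 ratios 0.18 and 0.20), was the only 1 of 3 such genes tested and did not pass in edgeR or DESeq2, with an unadjusted p above 0.05.

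In the JNK/p38 branch 3 of 18 genes tested rose and 1 fell, with a median log2 change of 0.05. GADD45B, a stress-induced activator of the upstream kinases, rose 2.35-fold (log2 change 1.23 ± 0.29, SE, edgeR adjusted p = 0.0177). Its log2 ratio was 1.77 (1.36 to 2.22) in CUTLL1 and 0.69 (0.29 to 1.11) in TIB153. The p38 effector kinase MAPKAPK2 rose by 0.41 ± 0.12 (edgeR adjusted p = 0.0396) and the JNK scaffold MAPK8IP3 by 0.45 ± 0.13 (edgeR adjusted p = 0.0391), while MAPKAPK3, a relative of MAPKAPK2, fell by 0.56 on the log2 scale (SE 0.12, edgeR adjusted p = 0.0125). MAP3K11, a kinase upstream of JNK and p38 (0.27 and 0.11), did not pass. In the ERK branch 1 of 17 genes rose and 0 fell, with a median of −0.03. BRAF rose by 0.60 ± 0.14 (edgeR adjusted p = 0.0158), while the adaptor GRB2 (−0.01 and 0.00) and the ERK-activating kinase MAP2K2 (−0.05 and −0.14) did not pass.

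ERK feedback and readout genes had a median log2 change of 1.04, and 3 of 9 rose and 0 fell. SPRY4, an inhibitor of receptor signaling to ERK, rose 5.11-fold (2.35 ± 0.47, edgeR adjusted p = 0.00792), with 12 counts in control and 49 in treated CUTLL1 against 4 and 38 in TIB153. EGR1, an immediate early transcription factor, rose by 1.04 ± 0.32 (edgeR adjusted p = 0.0471) and IER3, an early response gene, by 1.08 ± 0.32 (edgeR adjusted p = 0.0395). The ERK inhibitors SPRY2 (−0.03 in CUTLL1 and 0.97 in TIB153), SPRED1 (0.10 and 0.74) and SPRED2 (−0.08 and 0.81) and the transcription factor ETV5 (0.37 and 2.77) did not pass, and each had the larger ratio in TIB153. Per line, IER3 had 1.47 in CUTLL1 and 0.70 in TIB153, EGR1 had 0.92 and 1.19, and SPRY4 had 1.87 and 2.97.

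Of the 9 AP-1 and ATF genes tested, 5 rose and 0 fell, with a median log2 change of 1.03. JUN, a transcription factor that JNK phosphorylates, rose 7.11-fold and had log2 ratios of 2.59 in CUTLL1 and 3.10 in TIB153. ATF3, a stress-induced transcription factor, rose 4.19-fold, with 2.08 and 2.04. FOS, a dimer partner of JUN, rose 8.06-fold, with 3.72 in CUTLL1 and 1.46 in TIB153, FOSL2 rose by 1.03 ± 0.27 (edgeR adjusted p = 0.0312) with 1.55 and 0.41, and JUND by 0.53 ± 0.14 (edgeR adjusted p = 0.0243). JUNB (1.36 and −0.05) and ATF2 (0.20 and 0.41) did not pass.

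**Figure D4:**
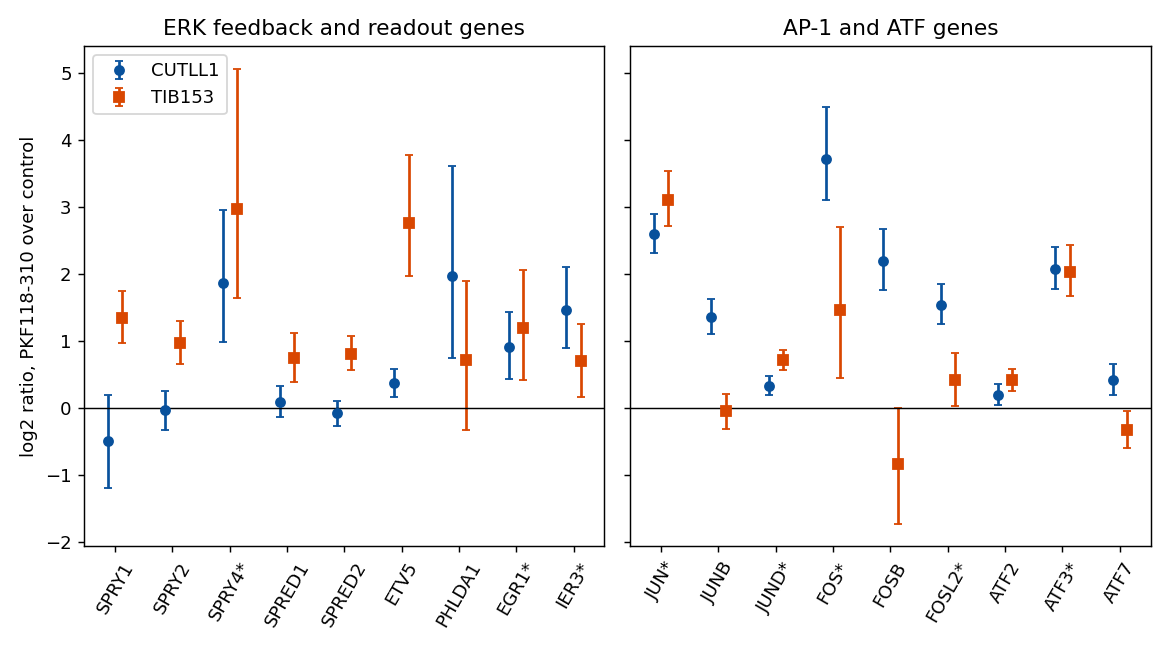
Treated over control ratio (log2) in CUTLL1 (blue circles) and TIB153 (orange squares) for the 9 tested ERK feedback and readout genes (left) and the 9 tested AP-1 and ATF genes (right), with 95% counting intervals as bars; an asterisk marks genes that rose across lines in edgeR. ETV5 (0.37 and 2.77) lies higher in TIB153 and FOS (3.72 and 1.46) higher in CUTLL1.

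The genes whose pattern was most like that of DUSP8 were found by the distance between 3 log2 ratios formed from the 4 libraries (treated over control in each line, and control over control) among 11397 genes reaching 5 CPM. They were IQCN (distance 1.29, with 3, 85, 2 and 87 counts in CUTLL1 control, CUTLL1 treated, TIB153 control and TIB153 treated), JUN (1.65, with 112, 735, 56 and 529 counts) and OSGIN1, an oxidative stress gene (1.70, with 41, 378, 20 and 164 counts). With pseudogene reads added to DUSP8, an alternative chosen after seeing the data, JUN was nearest (0.767), then OSGIN1 (0.938), and IQCN lay at 2.17, so the order depends on those reads. For DUSP6 the nearest were RFX3 (distance 0.078), KLHL28 (0.089) and ARID3B (0.091). Those distances are far smaller than the counting intervals of DUSP6 itself, so the order among them is not resolved.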

How the data were processed

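Poly(A) RNA was made into stranded libraries per the labels. The authors deposited raw read counts per gene for each lane. HISAT2, HTSeq, DESeq2 and hg38 stand in the submitters' processing notes; whether HTSeq used strand was not given in the sources used. The deposited comparison tables hold the authors' own fold changes and p-values and were not used. Gene coordinates in the files match GENCODE v29, which gave exonic lengths and overlaps.

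Lanes of a library were summed (totals 7609427 to 8140391). Genes were filtered with filterByExpr (treatment as group), leaving 13280, and scaled by TMM (edgeR 4.0.16, R 4.3.3). Log2 ratios used a pseudocount of 0.5 counts. Line differences of ratios used a normal 95% interval on the log scale from the 4 counts. A gene was called at 2-fold or more where its exact binomial interval excluded no change. Pathway genes outside the set were tested across lines with edgeR's quasi-likelihood test (robust, Benjamini-Hochberg over all genes), with DESeq2 1.42.0 as an alternative. The SE of a log2 change was formed from that change and the F statistic of the edgeR test. It thus rests on the spread pooled over genes and is not a spread measured between the lines. Named were all 9 members, every listed pathway gene that passed, up to 4 genes per list with the most counts (some are not reported here), and the 3 genes nearest to DUSP8 and to DUSP6. Members, lists and motifs were chosen with earlier results of these data known. Alternatives were other scalings, a pseudocount of 2, no filter, 1 lane alone and a 1.5-fold limit.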

Additional observations from a re-analysis of the deposited data

Results flagged for a closer look

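DUSP1 had log2 ratios of PKF118-310 over control with opposite signs, at 0.46 (0.11 to 0.82) in CUTLL1 and −0.22 (−0.50 to 0.06) in TIB153, where the interval included no change. Each group was 1 library, and the difference was not tested over replicates.

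Among the 73 pathway genes tested, 3 had counting intervals on opposite sides of no change in the lines, beside 3.4% of all genes tested. They were picked out for that, after their values were seen, and the difference was not tested over replicates. FOSB, an AP-1 subunit, had a log2 ratio of 2.20 in CUTLL1 (50 to 251 counts) and −0.83 in TIB153 (33 to 20 counts). MAP2K3, a kinase that activates p38, had 0.44 and −0.38, and ATF7, a transcription factor of the ATF family, had 0.42 and −0.32.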

How the results depend on the processing

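All 27 ratios of the set (9 genes in 3 contrasts) stayed within their own counting intervals under total-count scaling, DESeq2 size factors, a pseudocount of 2, no filter and either lane alone. Scalings moved ratios by at most 0.06 on the log2 scale. Pseudogene reads moved DUSP8 beyond its interval, to 2.84 in CUTLL1 and 3.60 in TIB153. The JNK/p38-directed median in CUTLL1 was 2.06 without DUSP1, DUSP2 and DUSP4. The count of genes 2-fold lower in TIB153 control than in CUTLL1 control was 1 in place of 2 with a pseudocount of 2 and 1 to 1 with either lane alone. For DUSP8 the pseudocount brought the log2 ratio to −0.97, and in single lanes the interval included no change. At a 1.5-fold limit 1 gene was higher there in place of 0. With PKF118-310, 5 genes in place of 4 were higher in CUTLL1 at that limit and in lane L001 alone (DUSP6 added). In TIB153 3 in place of 4 were higher in that lane (DUSP4 lost). Shares of all genes under these alternatives are not given, so nothing is read from the changed counts. Of the pathway genes outside the set, the DESeq2 Wald test called 3 higher and 0 lower in place of 12 and 1. With edgeR the number higher was 8 in lane L002 alone, 9 in lane L001 alone, 11 with total-count scaling and 14 without a filter. Without a filter 2 were lower. Shares of all genes are not given for these settings either. No paired analysis was possible because the replicate numbers in the labels mark lanes of the same library, other than the block by cell line in edgeR. Depth limits DUSP4 and DUSP6 most, with 1 to 44 counts per library.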
